A study of Capra hircus with 6 samples.

Results

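The genes described here encode chemokines, interleukins, the colony-stimulating factors, LIF and oncostatin M, and the receptors of these ligands. They were taken by name from the gene count table of secondary hair follicle dermal papilla cells (SHF-DPCs) of the cashmere goat. A row was a member if its identifier or its gene symbol began with CCL, CXCL, CCR, CXCR, ACKR or IL followed by a digit, or was one of CSF1, CSF1R, CSF2, CSF3, LIF, LIFR, OSM and OSMR. Of the 15944 genes listed, 107 were members, and 12 of these are listed under a LOC number, which is given in parentheses after the symbol. IL4I1 was taken by this rule although it encodes an amino acid oxidase and not an interleukin. SHF-DPCs are the mesenchymal cells at the base of the follicle that grows the cashmere fibre. The libraries came from wild-type primary cultures isolated from the skin of adult Albas cashmere goats, 3 years old, and expanded over several passages. The 3 control libraries came from cells without all-trans retinoic acid (ATRA), and the 3 ATRA libraries from cells treated with the compound at 0.1 mM for 24 h. ATRA is the active metabolite of vitamin A and a ligand of nuclear retinoic acid receptors. The study treated cells of 3 goats, and the sources used here name neither the animal behind each library nor a solvent control. P-values therefore measure the spread between these libraries.

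Chemokines are small secreted proteins that guide the migration of cells, and they act through receptors that couple to G proteins or, for the atypical receptors, that bind and remove the ligand. Interleukins act through paired receptor chains, which pass the signal to JAK kinases and STAT factors or, for the interleukin 1 and interleukin 17 families, to adaptors that lead to NF-kappa B. Fibroblasts of the skin both make and sense these proteins, and several of the messages are short-lived and can be switched on within hours.

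The libraries held 35532339 to 38012771 counts on genes. Normalized CPM is a count scaled to the size of its library and to the TMM factor given next. In this unit 1 count equalled 0.0227 to 0.0322. The TMM scaling factors, which set the libraries on a common scale, lay between 0.842 and 0.851 in the controls and between 1.16 and 1.20 with ATRA. With library size as the only scaling, the log₂ fold changes (log₂FC) of all genes tested had a median of 0.52 in place of 0.04, so small changes depend on the scaling. All 16 dermal papilla and dermal fibroblast markers were listed, and their summed level was 64058 to 66535 normalized CPM in the controls and 2895 to 2988 with ATRA. Most of that sum was COL1A1 and VIM, with 27440 and 19158 normalized CPM on average in the controls. ACTA2, which encodes the α-smooth muscle actin used to identify these cells, had 6582 and 8.37 normalized CPM on average, whereas PROM1, which encodes the marker CD133, had at most 1 count in any library. ALPL and CORIN also had at most 1 count in any library, and SOX2 had 0 to 5 counts in the controls and 9 to 16 with ATRA. By adjusted p, 11 of the 12 tested markers fell, LEF1 by only 0.54 on the log₂ scale, and SOX18 did not pass the test (log₂FC 0.47). Of 20 leukocyte markers, 13 were listed, with a summed level of 26.9 to 31.1 normalized CPM in the controls and 43.8 to 46.3 with ATRA. CD14 and CD68 were the 2 markers that rose and ITGAX, CORO1A and LAPTM5 the 3 that fell, while CD3E, ITGAM, AIF1 and TYROBP had at most 7 counts in any library. Of 12 keratinocyte markers, 10 were listed, with a summed level of 3.21 to 5.01 normalized CPM in the controls and 5.42 to 6.02 with ATRA. Most of that was KRT10, and KRT5 and KRT14 had 2 to 20 counts per library in the controls and 0 to 3 with ATRA. Of 10 endothelial markers, 7 were listed, with 82.4 to 90.3 normalized CPM in the controls and 16.0 to 17.6 with ATRA. Among them ERG fell from 85.2 to 9.20 normalized CPM, TEK rose, CDH5 had at most 1 count in any library, and PECAM1 rose from 0 counts in each control to 242, 340 and 206 with ATRA. Of 7 melanocyte markers, 3 were listed, with 16.1 to 17.6 normalized CPM in the controls and 32.2 to 39.0 with ATRA, where MITF rose and PMEL fell. The part of these markers in the results below was not tested, and in bulk samples fewer cells of a type and less RNA per cell cannot be told apart.

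Of the 107 members, 53 had enough counts to be tested and 54 did not, and the highest count among the untested members was 14 in 1 library. A total of 33 members had at most 3 counts in every library. A gene was called a differentially expressed gene (DEG) at |log₂FC| above 1 and an unadjusted p under 0.05, and it passed the test at a Benjamini-Hochberg adjusted p under 0.05 in edgeR's quasi-likelihood fit over all 12588 genes tested. Among the tested members, 22 were DEGs higher with ATRA, or 41.5%, beside 13.7% of all genes. A further 12 were DEGs lower with ATRA, or 22.6%, beside 17.3% of all genes, which is close to that background. Library ATRA 2 stood apart from its group, with a chi-square per degree of freedom of 18.4 and 17.3 against the other ATRA libraries, where the other pairs of replicates had 5.01 to 8.94. Ranges of the 2 groups did not overlap for 42 of the 53, or 79.2%, which is near the 80.1% of all genes. The counts describe the members that reached the expression filter, which keeps a gene that is high in 1 group alone, and they are not a test of the members against other genes. The median log₂FC was 0.30 for the tested members and 0.04 for all genes, with members between -5.53 and 5.96. By adjusted p, 25 of the 53 rose, beside 40.9% of all genes, and 14 of the 53 fell, beside 38.7%. The share of members was a little above that of all genes upward and below it downward. Under scaling by library size only the numbers were 35 and 12.

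**Figure D1:**
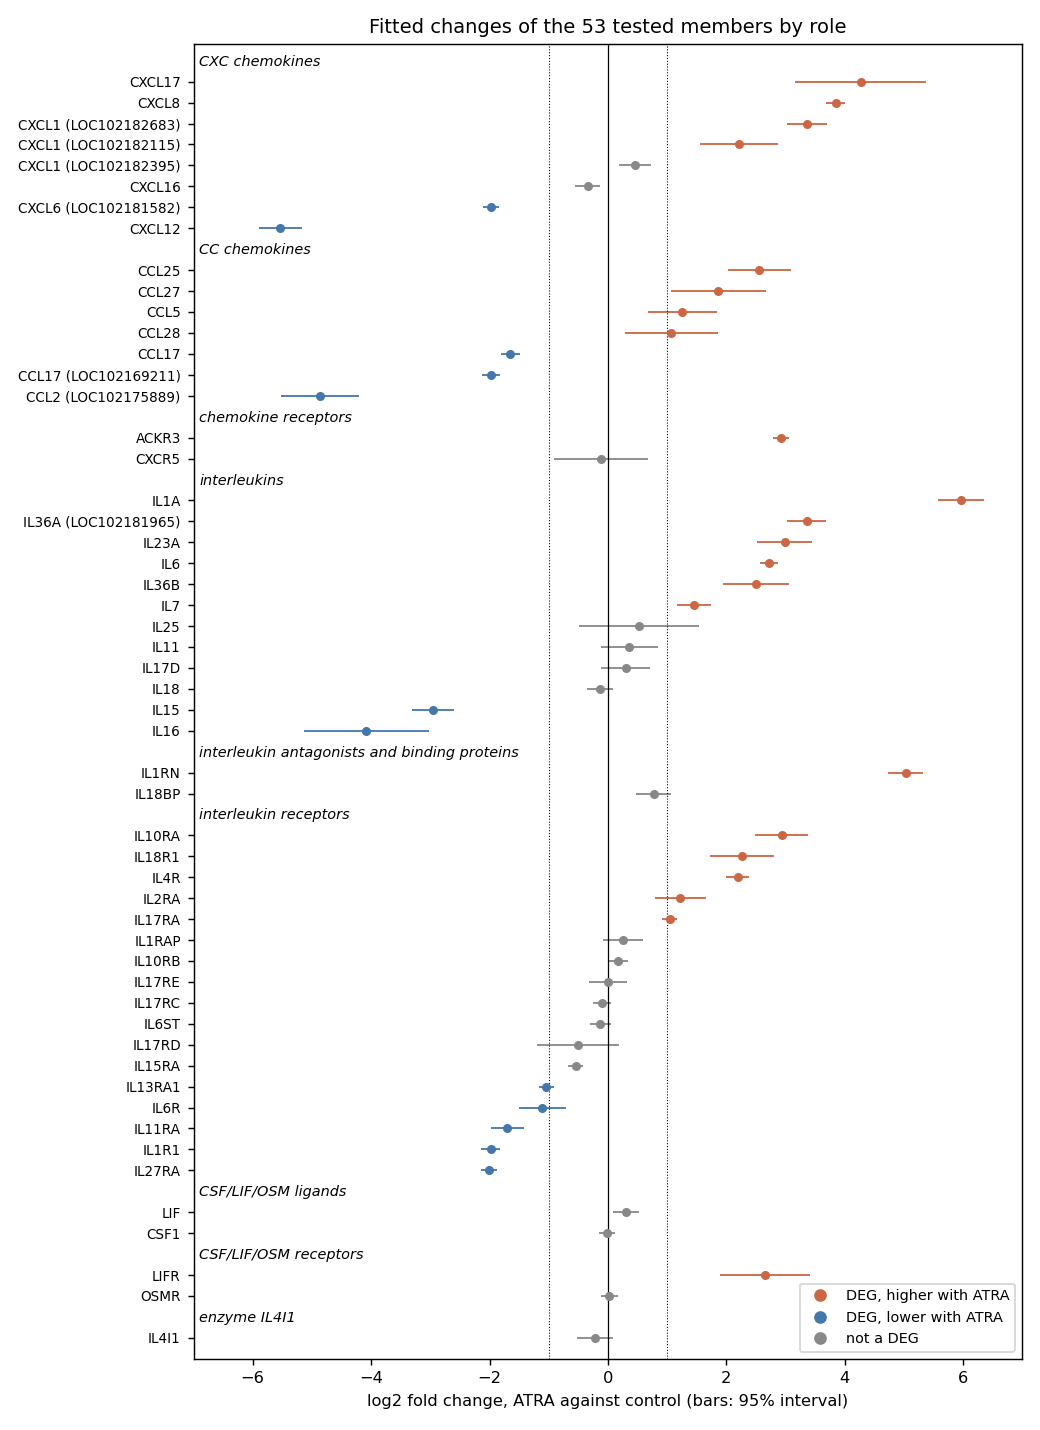
Fitted log₂ fold change of ATRA against control libraries (x axis) for each of the 53 tested members (y axis), grouped by role. Points are the estimates, bars the 95% intervals and dotted lines the DEG threshold of 1 in either direction. Orange marks the 22 DEGs higher with ATRA, blue the 12 lower, and grey the other 19. Every role with at least 7 tested members holds both orange and blue points.

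Ligands and receptors were both split in direction. Of 29 tested ligands, 14 were DEGs higher with ATRA (48.3%) and 7 lower (24.1%), with a median log₂FC of 0.53. Of 21 tested receptors, 7 were DEGs higher (33.3%) and 5 lower (23.8%), with a median of -0.00. Over all genes the shares were 13.7% higher and 17.3% lower. The ligands ran from -5.53 to 5.96 and the receptors from -2.01 to 2.93. No receptor reached an |log₂FC| of 3, whereas 5 ligands lay above 3 and 3 below -3. Among all genes, 2.79% lay above 3 and 4.60% below -3.

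Among the CXC chemokines, CXCL8 and the CXCL1 copies were higher with ATRA, whereas CXCL12 and CXCL6 were lower. All 8 tested members of the 10 listed passed the test, 5 upward and 3 downward, beside 40.9% and 38.7% of all genes. CXCL8, the main attractant of neutrophils, had 16.7, 15.5 and 14.4 normalized CPM in the control libraries and 231, 229 and 209 in the ATRA libraries. The lowest ATRA library was far above the highest control, with a log₂FC of 3.84 ± 0.0728 (SE, n = 3 per group, edgeR adjusted p = 8.20e-19). CXCL6 (LOC102181582), a neighbouring neutrophil attractant, moved the other way. It had 99.7, 105 and 104 normalized CPM in the controls and 26.0, 26.9 and 25.9 with ATRA, and fell by 1.97 on the log₂ scale (SE 0.0633, edgeR adjusted p = 1.74e-15). The ratio of CXCL8 counts to CXCL6 counts within a library, which does not depend on scaling, was 0.139 to 0.167 in the controls and 8.07 to 8.88 with ATRA.

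The 3 rows annotated as CXCL1, which encodes another ligand of the same neutrophil receptors, differed in the fitted size of change. CXCL1 (LOC102182683) had 0.934, 0.896 and 0.747 normalized CPM in the controls and 8.88, 9.30 and 8.39 with ATRA (log₂FC 3.36 ± 0.164, edgeR adjusted p = 9.78e-13). CXCL1 (LOC102182115) rose at a lower level, from 7, 18 and 29 counts in the controls to 124, 125 and 90 with ATRA (log₂FC 2.21 ± 0.314). CXCL1 (LOC102182395) rose least, from 5.22 to 6.77 normalized CPM across the controls to 7.64 to 9.53 with ATRA, and its log₂FC of 0.45 was not past the DEG threshold. The groups did not overlap for any of the 3 rows. How any reads shared by such rows of the same symbol were counted is not given in the sources used here, so the split between the rows is uncertain. Their sequences were not compared. Summed over the 3 rows, the level was 7.66 ± 0.879 normalized CPM (SD, n = 3) in the controls and 20.02 ± 1.15 with ATRA, a ratio of 2.61. The exact permutation test gave p = 0.1, the smallest that 3 against 3 libraries allow. Summed over the 5 rows of CXCL1, CXCL6 and CXCL8, the level was 126 ± 1.74 normalized CPM in the controls and 269 ± 13.2 with ATRA (exact permutation p = 0.1).

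CXCL12, the ligand of CXCR4 and ACKR3 that dermal fibroblasts commonly make, showed the largest decrease of any tested member. Its level was 17.8, 18.4 and 14.9 normalized CPM in the controls and 0.393, 0.385 and 0.314 with ATRA, from 480 to 594 counts down to 13 to 17. The groups were far apart, and the fitted level was 46.2-fold lower with ATRA (log₂FC -5.53, SE 0.170, edgeR adjusted p = 8.64e-16). CXCL16, a membrane-bound chemokine that can be shed, had 18.4 to 21.2 normalized CPM in the controls and 13.5 to 17.4 with ATRA. Its log₂FC of -0.34 passed the test but turned to 0.14 under scaling by library size only, so its direction is not settled. CXCL17, an attractant of myeloid cells found mainly in mucosa, had 2, 1 and 2 counts in the controls and 64, 43 and 31 with ATRA. The ratio of its summed counts per TMM-scaled library size was 20.5, with an exact 95% counting interval of 8.57 to 64.1. CXCL14 and CXCL10 had at most 2 counts in any library.

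Among the CC chemokines, both CCL17 rows and CCL2 fell, and CCL25, CCL27, CCL5 and CCL28 rose. All 7 tested members of the 12 listed were DEGs, 4 higher and 3 lower, beside 13.7% and 17.3% of all genes. CCL17 and its adjacent copy encode a ligand of CCR4 that attracts T cells. CCL17 had 118, 125 and 104 normalized CPM in the controls and 37.2, 34.2 and 39.2 with ATRA (log₂FC -1.65, SE 0.0747, edgeR adjusted p = 3.10e-13). CCL17 (LOC102169211) had 192, 185 and 167 in the controls and 48.4, 41.2 and 48.9 with ATRA (log₂FC -1.97, SE 0.0737, edgeR adjusted p = 1.73e-14). Both rows were lower in every ATRA library than in any control, and their sum, which does not depend on how shared reads were split between them, was 3.58-fold lower (297 ± 22.2 against 83.1 ± 6.70 normalized CPM, exact permutation p = 0.1). CCL2 (LOC102175889), the monocyte attractant, had 147, 127 and 124 counts in the controls and 8, 2 and 8 with ATRA. The fitted level was 29.1-fold lower (log₂FC -4.86, SE 0.316, edgeR adjusted p = 7.36e-11), with no overlap of the groups.

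A further 4 CC chemokines of barrier tissues and T cell traffic rose from low levels. CCL25, a ligand of CCR9 best known from thymus and gut, had 14 to 17 counts in the controls and 106 to 137 with ATRA (log₂FC 2.56, edgeR adjusted p = 3.64e-08). CCL27, a skin ligand of CCR10, had 5 to 12 counts and 31 to 48 counts (log₂FC 1.86, edgeR adjusted p = 2.16e-04). CCL5, an attractant of T cells, had 16 to 22 counts and 54 to 80 counts (log₂FC 1.26, edgeR adjusted p = 4.70e-04). CCL28, a mucosal ligand of CCR10, had 7 to 12 counts and 22 to 36 counts (log₂FC 1.07), and its adjusted p of 0.014 in edgeR rose to 0.076 without Control replicate 1 and to 0.074 without ATRA replicate 3. None of these 4 reached 4 normalized CPM in a library. Among the 5 untested CC members, CCL20 had 0, 0 and 1 counts in the controls and 11, 5 and 13 with ATRA, and CCL26 had 9, 8 and 11 counts in the controls and 3, 1 and 3 with ATRA. Per TMM-scaled library size, summed counts were 21.5-fold higher with ATRA for CCL20 (exact 95% counting interval 3.57 to 879). They were 5.39-fold lower for CCL26 (2.30 to 14.6). CCL19, CCL24 and CCL3 (LOC102181154) had at most 11 counts in any library.

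Chemokine receptors had few counts apart from the atypical receptor ACKR3. Of 17 listed, 2 reached the filter, and the other 15 had at most 14 counts in any library. ACKR3 binds CXCL12 and removes it without signalling through G proteins. It had 33.4, 34.3 and 37.1 normalized CPM in the controls and 261, 270 and 262 with ATRA, a 7.56-fold difference with groups far apart (log₂FC 2.92 ± 0.0620, edgeR adjusted p = 3.99e-18). The ratio of CXCL12 counts to ACKR3 counts within a library was 0.402 to 0.536 in the controls and 0.0012 to 0.00151 with ATRA, lower in all 3 ATRA libraries. The signalling receptor of CXCL12, CXCR4, had 2, 2 and 1 counts in the controls and 12, 4 and 7 with ATRA. Its ratio per TMM-scaled library size was 3.41, with an exact counting interval of 1.27 to 11.5. CXCR1 and CXCR2, the receptors of CXCL8, had at most 4 counts in any library, and CCR4, the receptor of CCL17, at most 6. CXCR5, a receptor of B cell follicles, had 17 to 38 counts in the controls and 17 to 45 with ATRA, and its groups overlapped (log₂FC -0.12, 95% interval -0.92 to 0.67).

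**Figure D2:**
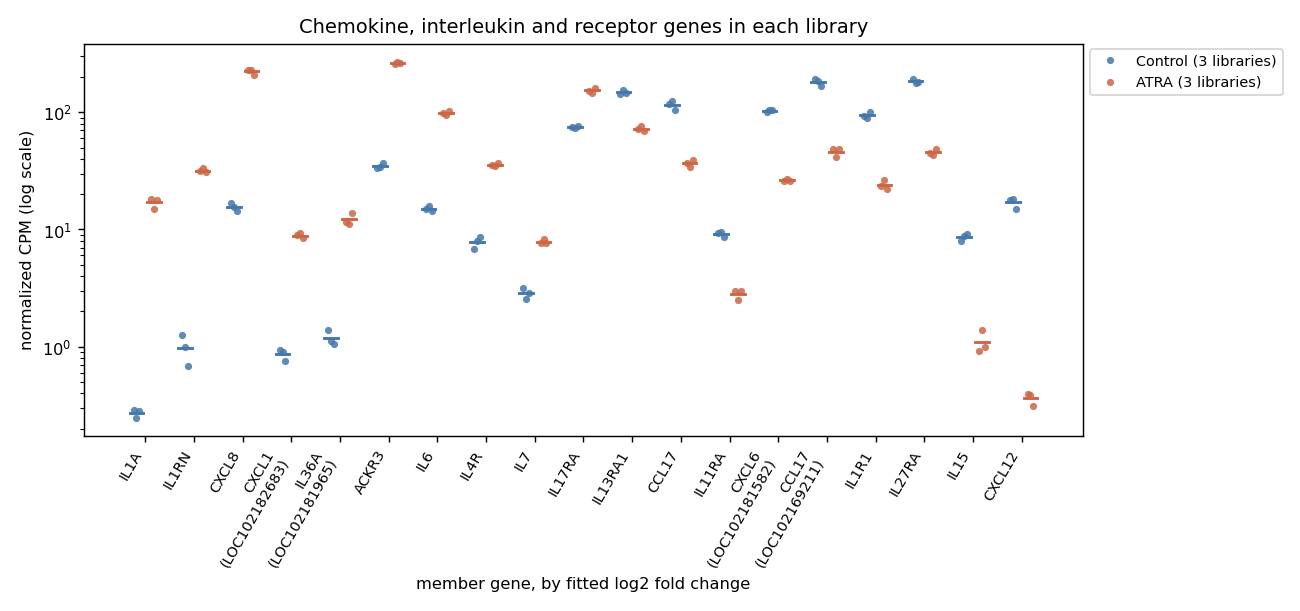
Normalized CPM on a log axis for the 19 DEGs with an adjusted p under 0.05 and a mean of at least 5 normalized CPM in 1 group, ordered by fitted log₂ fold change from the highest at the left. Points are the 3 libraries of each group and short lines the group means. IL1A stands at the left end and CXCL12 at the right end. No control library overlaps an ATRA library for any of the 19 genes, which were chosen by fold change and adjusted p. The groups did not overlap for 80.1% of all genes tested.

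In the interleukin 1 family, IL1A, IL36A, IL36B and the antagonist IL1RN rose and the signalling receptor IL1R1 fell, whereas IL18 did not pass the test, IL33 was lower and IL18R1 rose. Of 9 tested members of the IL-1, IL-18, IL-33 and IL-36 families, 5 were DEGs higher with ATRA and 1 lower, with a median log₂FC of 2.27. Over all genes, 13.7% were DEGs higher and 17.3% lower. IL1A, an alarm cytokine that also acts from inside the cell, had 9, 8 and 9 counts in the controls and 794, 664 and 744 with ATRA. In normalized CPM these were 0.290, 0.247 and 0.280 against 18.4, 15.1 and 17.98, and the fitted difference was 62.2-fold (log₂FC 5.96 ± 0.184, edgeR adjusted p = 9.45e-16). It was the largest increase of any tested member. IL1RN, the secreted antagonist that occupies the same receptor, had 1.26, 0.989 and 0.685 normalized CPM in the controls and 31.4, 33.1 and 31.0 with ATRA (log₂FC 5.03 ± 0.139, edgeR adjusted p = 1.78e-16). Both genes were higher in every ATRA library than in any control, with the smaller fitted change for the antagonist. The ratio of IL1RN counts to IL1A counts within a library was 2.44 to 4.33 in the controls and 1.71 to 2.20 with ATRA, without overlap (exact permutation p = 0.1).

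IL1R1, the signalling receptor of IL-1, had 93.6, 90.1 and 100 normalized CPM in the controls and 23.3, 26.5 and 22.2 with ATRA. Every ATRA library was below every control (log₂FC -1.98, SE 0.0760, edgeR adjusted p = 2.57e-14). Its partner chain IL1RAP, shared with the IL-33 and IL-36 receptors, had 3.13 to 4.54 normalized CPM in the controls and 3.96 to 4.66 with ATRA, with overlapping groups (log₂FC 0.25, edgeR adjusted p = 0.162, or 0.035 without Control replicate 2). The decoy receptor IL1R2 had at most 6 counts in any library. IL36A (LOC102181965), an epithelial alarm cytokine, had 1.39, 1.11 and 1.06 normalized CPM in the controls and 11.6, 11.2 and 13.7 with ATRA (log₂FC 3.36 ± 0.157, edgeR adjusted p = 5.00e-13). IL36B, its relative, had 11 to 23 counts in the controls and 105 to 145 with ATRA (log₂FC 2.50 ± 0.265). The receptor of both, IL1RL2, had at most 1 count in any library, and the antagonist IL36RN likewise at most 1.

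IL18, a cytokine stored as a precursor and cut by caspase 1, had 10.3 to 12.9 normalized CPM in the controls and 10.2 to 11.3 with ATRA, with overlapping groups (log₂FC -0.13, 95% interval -0.36 to 0.09). Under scaling by library size only, IL18 turned to 0.34 and passed the test (edgeR adjusted p = 0.00715). Its soluble antagonist IL18BP had 3.03, 3.06 and 3.24 normalized CPM in the controls and 5.44, 5.37 and 5.10 with ATRA. IL18BP passed the test without being a DEG (log₂FC 0.77 ± 0.141, edgeR adjusted p = 7.02e-05, or log₂FC 1.25 under scaling by library size only). The receptor chain IL18R1 rose from 13, 25 and 20 counts to 129, 108 and 140 (log₂FC 2.27 ± 0.257, edgeR adjusted p = 2.04e-07), while the second chain IL18RAP had at most 2 counts in any library. IL33, a nuclear alarm cytokine, had 8, 9 and 11 counts in the controls and 0 in each ATRA library. Against a floor of 3 counts per library and under TMM scaling, its level was at least 4.18-fold lower with ATRA. This bound and the intervals of ratios cover counting error only, and the bound and the ratios depend on the scaling. The receptor of IL33, IL1RL1, had 0 to 1 counts in the controls and 3 to 9 with ATRA.

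In the family that signals through the shared chain gp130, the ligand IL6 and the receptor chain LIFR were DEGs higher with ATRA. The chains IL6R, IL27RA and IL11RA were DEGs lower, and OSMR and gp130 itself did not pass the test. Of 9 tested members, 2 were DEGs higher and 3 lower, beside 13.7% and 17.3% of all genes, with a median log₂FC of 0.02. IL6, a cytokine of acute inflammation, had 15.0, 15.8 and 14.4 normalized CPM in the controls and 98.5, 94.8 and 103 with ATRA. The groups were widely separated, with a 6.56-fold difference (log₂FC 2.71 ± 0.0712, edgeR adjusted p = 8.37e-17). IL6R, which binds IL-6 before gp130 does, had 3.96, 3.37 and 3.86 normalized CPM in the controls and 1.87, 1.93 and 1.38 with ATRA (log₂FC -1.11, SE 0.187, edgeR adjusted p = 2.91e-05). It was no DEG without ATRA replicate 3 (-0.979) or under scaling by library size only (-0.628). IL6ST, which encodes gp130, had 118, 134 and 133 in the controls and 110, 136 and 106 with ATRA. Its groups overlapped, and its log₂FC was -0.13 with a 95% interval of -0.30 to 0.04, or 0.35 under scaling by library size only. Library ATRA 2 decided that call, since without it the log₂FC was -0.26 and the edgeR adjusted p was 0.000109. The ratio of IL6 counts to IL6R counts was 3.72 to 4.69 in the controls and 49.2 to 74.7 with ATRA.

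IL27RA, a receptor chain that pairs with gp130 for IL-27, had 191, 178 and 182 normalized CPM in the controls and 44.8, 43.2 and 49.0 with ATRA, 4.02-fold lower (log₂FC -2.01, SE 0.0633, edgeR adjusted p = 1.34e-15). It showed the largest decrease among the tested receptors. IL11RA, the receptor of IL-11, had 9.38, 9.52 and 8.59 normalized CPM in the controls and 3.01, 2.49 and 2.97 with ATRA (log₂FC -1.70, SE 0.133, edgeR adjusted p = 1.16e-09). Its ligand IL11 had 54 to 79 counts in the controls and 79 to 132 with ATRA, with overlapping groups (log₂FC 0.36, 95% interval -0.12 to 0.84), and passed the test without ATRA replicate 2 (log₂FC 0.56). LIF, which acts through LIFR and gp130 and keeps stem cells undifferentiated, had 8.51 to 9.55 normalized CPM in the controls and 10.1 to 11.9 with ATRA. Its log₂FC of 0.30 passed the test in edgeR (adjusted p = 0.014) but not without Control replicate 1, Control replicate 3 or ATRA replicate 2, where adjusted p was 0.0592, 0.0509 and 0.0649. LIFR rose from 16, 6 and 6 counts to 58, 91 and 90 (log₂FC 2.65 ± 0.363, edgeR adjusted p = 2.43e-06, or log₂FC 3.29 without Control replicate 1). OSMR, its neighbour and the oncostatin M receptor, had 42.3 to 45.6 normalized CPM in the controls and 43.4 to 48.1 with ATRA, with a log₂FC of 0.02 and a 95% interval of -0.12 to 0.17, or 0.50 under scaling by library size only. OSM itself had at most 3 counts in any library. IL23A, which joins IL12B to form IL-23, rose from 15 to 24 counts in the controls to 184 to 206 with ATRA (log₂FC 2.99 ± 0.220), while IL12B had at most 2 counts in any library.

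**Figure D3:**
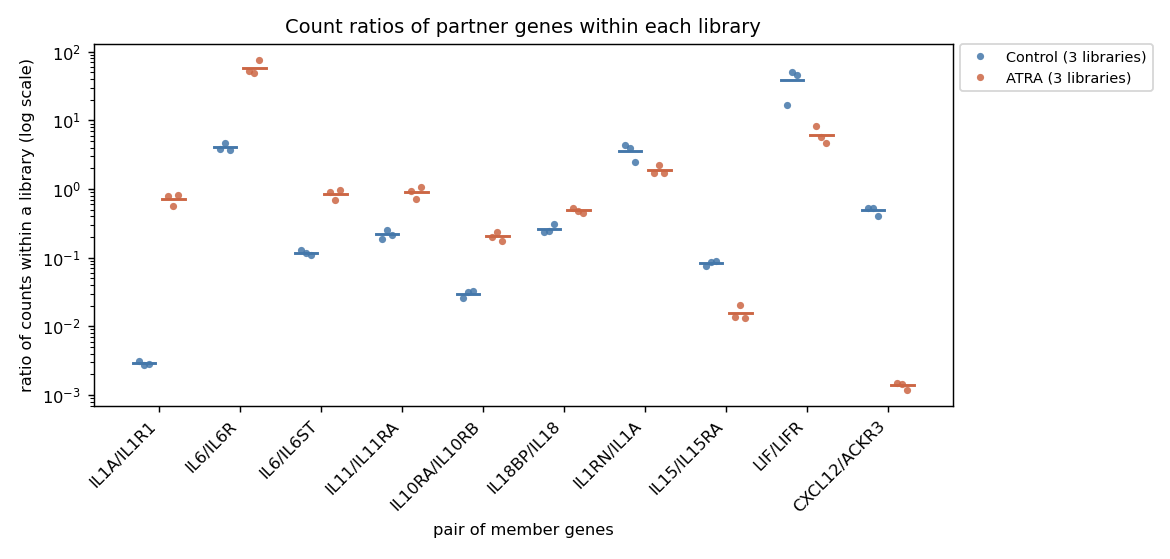
Ratio of the counts of partner genes within each library, on a log axis, for 10 pairs of members picked with their values in view. Points are libraries and short lines group means. The control and ATRA libraries do not overlap for any pair, with the widest gap for CXCL12 over ACKR3 and for IL1A over IL1R1, whose ratio was 0.00288 in the controls and 0.722 with ATRA on average.

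Ratios within a library were computed for 11 pairs of partners picked with their values in view, the 10 plotted and CXCL8 over CXCL6. None depends on the scaling of libraries. Each gave an exact permutation p of 0.1, the smallest possible here, which is also 0.1 after Benjamini-Hochberg adjustment over the 11. IL1A and IL1R1, IL6 and IL6R, CXCL12 and ACKR3, and CXCL8 and CXCL6 had each separated in opposite directions. Their ratios therefore had to separate, so that p adds no evidence for these pairs. On a log₂ scale, the group means differed by 7.95 for IL1A over IL1R1, 3.84 for IL6 over IL6R, 2.04 for IL11 over IL11RA and -8.47 for CXCL12 over ACKR3.

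In the list kept for the common gamma chain family, IL7, IL4R and IL2RA rose and IL15, IL15RA and IL13RA1 fell. That list includes IL13RA1, which pairs with IL4R in a receptor without the common gamma chain. All 6 tested members of the list passed the test, which 40.9% of all genes did upward and 38.7% downward. IL15, a growth factor of natural killer and memory T cells that is also made by fibroblasts, had 7.96, 8.72 and 9.06 normalized CPM in the controls and 0.925, 1.38 and 0.991 with ATRA. It was 7.76-fold lower, with no overlap (log₂FC -2.96, SE 0.170, edgeR adjusted p = 1.16e-11). IL15RA, which presents IL-15 to neighbouring cells, had 104, 102 and 102 normalized CPM in the controls and 67.7, 67.3 and 75.6 with ATRA. Its log₂FC of -0.55 (edgeR adjusted p = 2.16e-07) shrank to -0.07 with library size as the only scaling, where adjusted p was 0.29. The ratio of IL15 counts to IL15RA counts, free of that choice, was 0.0768 to 0.0890 in the controls and 0.0131 to 0.0206 with ATRA.

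IL7, the stromal growth factor of lymphocytes, had 3.16, 2.53 and 2.90 normalized CPM in the controls and 7.63, 8.32 and 7.66 with ATRA (log₂FC 1.46 ± 0.137, edgeR adjusted p = 1.56e-08). IL4R, the shared chain of the IL-4 and IL-13 receptors, had 6.86, 7.94 and 8.62 in the controls and 35.5, 34.8 and 36.7 with ATRA, 4.56-fold higher (log₂FC 2.19 ± 0.0920, edgeR adjusted p = 1.01e-13). IL13RA1, which pairs with IL4R, changed in the opposite direction. It had 144, 155 and 146 normalized CPM in the controls and 71.4, 76.0 and 68.6 with ATRA (log₂FC -1.04, SE 0.0602, edgeR adjusted p = 1.26e-11). It still passed the test but was no DEG under upper-quartile scaling (-0.966) or scaling by library size only (-0.564). The ligand IL13 had at most 3 counts in any library. IL2RA, the high-affinity IL-2 receptor chain, rose from 43 to 60 counts in the controls to 126 to 186 with ATRA (log₂FC 1.22 ± 0.204), and IL2RG, the common gamma chain, had at most 3 counts in any library.

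Receptor chains of the IL-10 and IL-17 families differed within each family. IL10RA, the ligand-binding chain for IL-10, had 16, 20 and 22 counts in the controls and 209, 224 and 167 with ATRA (log₂FC 2.93 ± 0.213, edgeR adjusted p = 4.08e-10). IL10RB, the chain shared with other receptors of the family, had 19.6 to 21.0 normalized CPM in the controls and 21.7 to 23.97 with ATRA. Its ranges did not overlap, but its log₂FC of 0.17 had an edgeR adjusted p of 0.0545, which was 0.027 without ATRA replicate 2. IL17RA, the chain common to the IL-17 receptors, had 75.2, 72.9 and 76.6 normalized CPM in the controls and 152, 147 and 162 with ATRA (log₂FC 1.04 ± 0.0586, edgeR adjusted p = 8.70e-12). It was the single DEG among 6 tested members of the IL-17 family, beside 31.0% of all genes in either direction. Without ATRA replicate 3 its log₂FC of 0.993 was under the DEG threshold. The other 5 did not pass the test, although IL17D, IL17RC and IL17RE passed it under scaling by library size only. IL17RC, the partner of IL17RA, had 45.1 to 53.1 normalized CPM in the controls and 43.4 to 46.5 with ATRA (log₂FC -0.11, 95% interval -0.26 to 0.05, or 0.37 under scaling by library size only). The log₂FC was -0.00 for IL17RE, -0.50 for IL17RD, 0.30 for IL17D and 0.53 for IL25. IL17B had 0, 0 and 2 counts in the controls and 6, 7 and 4 with ATRA. Its ratio per TMM-scaled library size was 6.31, with an exact counting interval of 1.497 to 56.3.

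IL16, a secreted ligand of CD4 that is cut from a larger protein, had 42, 36 and 40 counts in the controls and 7, 0 and 2 with ATRA. Its fitted level was 16.9-fold lower with no overlap of the groups (log₂FC -4.08, SE 0.504, edgeR adjusted p = 6.44e-07), and 46.3-fold lower without ATRA replicate 1 (log₂FC -5.53). CSF1, the growth factor of macrophages, had 160, 146 and 170 normalized CPM in the controls and 153, 160 and 158 with ATRA. The groups overlapped, and the log₂FC of -0.02 had a 95% interval of -0.15 to 0.11, although under scaling by library size only it was 0.46. Its receptor CSF1R had at most 7 counts in any library. The enzyme IL4I1 had overlapping groups, with a log₂FC of -0.21. Of the 27 listed interleukins, 15 were not tested and had at most 12 counts in any library, and of the 30 interleukin receptors 13 were not tested, with at most 9.

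Members that lie side by side in the genome did not all change together. By the order of genes in the goat RefSeq table (assembly ARS1.2, used for names and order only), 45 members fell into 15 runs with at most 3 other protein-coding genes between neighbours. The share of DEGs over all genes was 13.7% higher and 17.3% lower. The run from IL1A to IL1RN, where the IL-36 genes also lie, had 9 members, of which 4 were tested and 4 were DEGs higher with ATRA. The other 5 had at most 4 counts in any library. In the run from CXCL8 through CXCL6 to the 3 CXCL1 rows, all 5 were tested, with 3 DEGs higher, 1 lower and 1 not a DEG. In the run of IL-1 receptor genes, 2 of 6 were tested, and IL18R1 rose while IL1R1 fell. LIFR rose beside OSMR, which did not pass the test, and IL11RA fell beside CCL27, which rose.

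**Figure D4:**
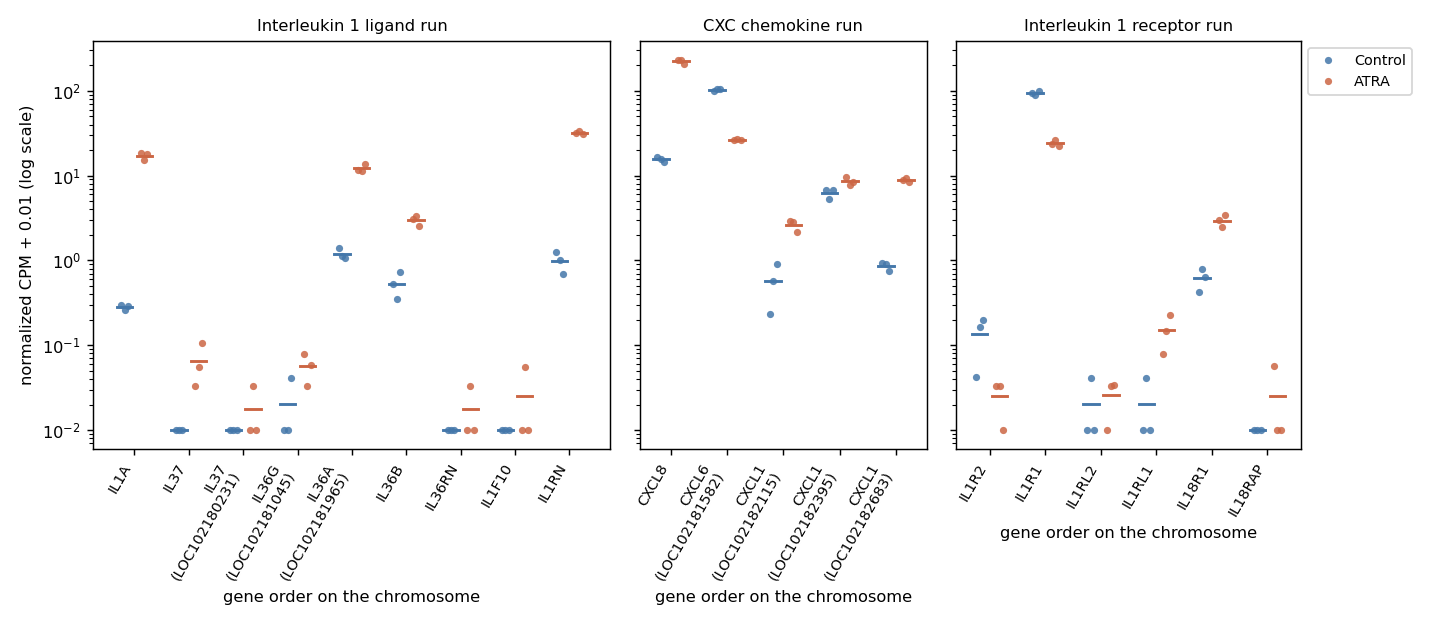
Normalized CPM plus 0.01 on a log axis for members of 3 genomic runs, drawn in gene order and not to distance. Points are libraries and short lines group means, and points at 0.01 are libraries with 0 counts. IL1A, IL36A, IL36B and IL1RN stand higher with ATRA, with near-empty genes between them, whereas CXCL6 and IL1R1 stand lower with ATRA.

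Genes that work with the members were counted by 5 pathway lists, beside the 13.7% of all genes that were DEGs higher and the 17.3% lower. No list was tested against other genes or lists. Of 14 tested genes among other cytokine ligands and receptor chains, 6 were DEGs higher and 3 lower. CLCF1, a further gp130 ligand, rose from 22.5 ± 1.11 to 93.8 ± 8.56 normalized CPM (SD, n = 3, log₂FC 2.06, edgeR adjusted p = 1.86e-14). The interferon gamma receptor chain IFNGR1 rose from 23.8 to 58.0. The second chain of that receptor, IFNGR2, fell from 163 to 94.7 normalized CPM (log₂FC -0.79, edgeR adjusted p = 2.97e-10). CMKLR1, the receptor of the attractant chemerin, fell from 204 ± 5.30 to 5.59 ± 1.09 normalized CPM (log₂FC -5.19, edgeR adjusted p = 2.54e-18). The JAK-STAT list held 1 DEG higher and 2 lower among 24 tested. The kinase JAK2 fell (log₂FC -1.61), and PIAS3, an inhibitor of STAT3, rose (1.08).

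Adaptors and kinases of the IL-1 and IL-17 receptors held 4 DEGs higher and 2 lower among 21 tested. IRAK2, a kinase of the IL-1 receptor complex, rose from 2.43 to 12.0 normalized CPM (log₂FC 2.30), and ZC3H12A, a ribonuclease that degrades IL6 mRNA, rose from 7.92 to 17.1 (1.11, or 0.999 without Control replicate 2). PELI2, a ubiquitin ligase that acts on IRAK proteins, fell (-1.73), as did TRAF3IP2, the adaptor of IL-17 receptors (-1.37, or -0.897 under scaling by library size only). Among 22 tested G protein subunits, arrestins, kinases and processing enzymes of chemokine signalling, 4 were DEGs higher and 6 lower. DPP4, a peptidase that trims CXCL12 and other chemokines, fell from 9.59 to 0.382 normalized CPM (log₂FC -4.64, edgeR adjusted p = 4.59e-13). The G protein subunits GNG11 (-1.93) and GNB4 (-1.85) fell, and the receptor kinase GRK5 (2.58) and the G protein inhibitor RGS16 (2.58) rose. Of 13 tested regulators of cytokine mRNA, ZC3H12A was the only DEG higher and ZFP36L2, which binds AU-rich elements, the only one lower (log₂FC -1.15, or -0.669 under scaling by library size only).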

How the data were processed

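The authors enriched poly(A) RNA, cleaned reads with fastp and TrimGalore and, per the labels, used HISAT2, featureCounts and DESeq2. They deposited raw read counts per gene. Their versions, genome build, annotation, strand setting and treatment of shared reads are not given in the sources used here. Dose and time come from the study's methods.

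The deposited counts were filtered with edgeR's filterByExpr by group (12588 of 15944 genes kept), scaled by TMM and fitted with the robust two-sided quasi-likelihood test (edgeR 4.0.16, R 4.3.3) with no covariate on all 6 libraries, and p-values were adjusted over all genes tested. DEG thresholds are those of the study. Its t-type test in R, run here on log₂(CPM + 1), served as an alternative only, since a count model fits raw counts. The study does not state the values that its own test used. Normalized CPM divides counts by the tested total times the TMM factor. The SE is |log₂FC| over the square root of F. The prior count was 0.125. Low counts were compared per library size times the TMM factor, with exact 95% intervals. Depth was 35532339 to 38012771 counts per library. In data simulated on 12466 genes, edgeR recovered 195 of 200 changed genes, with 8 unchanged genes called. In the real data 40.9% of genes passed the test upward and 38.7% downward. The simulation changed far fewer, in random directions, so it cannot measure errors that come from the scaling between groups.

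Members and lists were chosen with earlier results of these data known. Values in every library were given for DEGs with adjusted p under 0.05 and 5 normalized CPM in a group, ranges for other tested members at 20, and counts for members at the floor of 3 counts in 1 group and above it in the other. For each pathway list up to 3 genes per direction at 5 normalized CPM were named. Low members, partner pairs and sums were picked with their values in view. Gene order came from RefSeq (all 107 members matched). Promoter and protein sequences were not analysed here. The result of 1 gene of a pathway list is not reported here. Replicate numbers were not taken to pair libraries: the deviations of same-numbered libraries correlated at 0.0892, 0.0299 and -0.0764. Counts of replicate libraries differed by more than sampling noise in every pair (chi-square per degree of freedom 5.01 to 18.4), so none was counted as a duplicate. Figures used matplotlib 3.10.9 in Python 3.11.15.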

Additional observations from a re-analysis of the deposited data

How the results depend on the processing

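Counts of members were recomputed with other scaling, filters, tools and libraries. The 22 DEGs higher and 12 lower, and the 25 and 14 by adjusted p, were the same in number with RLE scaling, DESeq2 (1.42.0) and the replicate block, so the block changed no count. Leaving out each library in turn gave 20 to 23 and 11 to 12 DEGs, and 24 to 27 and 14 to 15 by adjusted p. With library size as the only scaling they were 23 and 10 DEGs, and 35 higher against 12 lower by adjusted p. Without a filter 30 and 17 members were DEGs, because more members were tested. The t-type test in R, run on log₂(CPM + 1), gave 17 and 11, and a filter at CPM 1 in 3 libraries 19 and 11. The added 1 shrinks the log₂FC of genes with low counts, such as CXCL17, which had 0.96 in that test. Requiring |log₂FC| above 2 left 16 and 5.

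Over 69 named genes and 960 refitted values, 16 gained and 10 lost an adjusted p under 0.05 and 22 changed sign, of which 5 also gained and 1 also lost it. The other 918 did none of these. An |log₂FC| of 1 was lost in 16 values of 11 genes and gained in 1. When the log₂FC was instead taken from group mean CPM with 1 added to each, 33 of 69 values moved by more than the replicate spread. IL1A became 3.83, CXCL17 0.97, IL16 -1.06 and CCL2 -2.18. With library size only, log₂FC became 0.46 for CSF1, 0.14 for CXCL16, 0.35 for CXCR5, 0.37 for IL17RC, 0.48 for IL17RE, 0.34 for IL18, 0.27 for IL4I1 and 0.35 for IL6ST. Under that scaling 10 genes gained significance upward, CSF1, IL17RC, IL17RE, IL18 and IL6ST among the above and IL10RB, IL11, IL17D, IL1RAP and OSMR, and CXCL16 and IL15RA lost it. With upper-quartile scaling it became 0.0602 for CSF1 and 0.0757 for IL17RE. Leaving out single libraries moved it from -0.0816 to 0.029 for CSF1, from -0.402 to 0.214 for CXCR5, from -0.093 to 0.0411 for IL17RE and from -0.0345 to 0.0441 for OSMR. IL17RE was also 0.012 under the stricter CPM filter, 0.000625 with the t-type test and 0.000311 with the block. The 3 libraries per group limit what could be detected, and the filter left out 54 members with at most 14 counts in any library.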

Other observations

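The KEGG terms in the table also group the members. Of 25 terms with at least 5 tested members, the 4 signaling pathways with over 10 are given, beside 13.7% of all genes that were DEGs higher and 17.3% lower. Among 19 tested members annotated to Jak-STAT signaling, 7 were DEGs higher with ATRA and 5 lower. The chemokine signaling term held 15 tested members with 7 higher and 5 lower, the IL-17 signaling term 14 with 5 higher and 4 lower, and the TNF signaling term 11 with 5 higher and 3 lower. These terms share members, were picked with their counts in view and were not tested.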
